A study of Mus musculus with 8 samples.

Results

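Potassium channel genes were compared between dorsomedial hypothalamus samples carrying a hairpin against Ppp1r17, the transcript of a protein phosphatase inhibitor found in these neurons (group shPpp1r17), and samples whose hairpin targets firefly luciferase, a gene that mice lack (group shfLuc). Members were chosen by symbol: every mouse gene whose symbol starts with Kcn, continues with letters and then carries a number was taken, and symbols ending in os or -ps with digits were left out. The rule took 94 of 55487 genes and left out 4 antisense or opposite-strand transcripts. It also took Kcnq1ot1, a long non-coding RNA that is transcribed from within the Kcnq1 locus and encodes no channel. This RNA is set apart from the subfamilies but stays in the counts, medians and sums over all members. All 8 libraries came from mouse tissue labelled DMH, 4 of each hairpin, and both groups therefore carried a hairpin. The titles also carry the letters LMD, which the labels do not expand. The labels give the genotypes only as a Ppp1r17 knockdown and a luciferase knockdown, and the strain, sex, age, vehicle of the hairpin and time after delivery were not known from the sources at hand. Whether each library was a separate animal is not stated either, so p-values here set differences against library-to-library spread, part of which may be technical.

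Potassium channels let potassium ions leave or enter cells and thereby set the resting potential, end the action potential and shape the intervals between spikes. Voltage-gated channels (Kcna, Kcnb, Kcnc, Kcnd, Kcnq and Kcnh genes) open on depolarization, inward rectifiers (Kcnj) and two-pore channels (Kcnk) carry current near rest, and calcium- or sodium-activated channels (Kcnma, Kcnn and Kcnt) open when those ions accumulate inside the cell. Modifier subunits (Kcnf, Kcng, Kcns and Kcnv) form no channel alone, and auxiliary proteins (Kcnab, Kcne, Kcnip and Kcnmb) alter the gating or placement of the pores. In the brain most of these genes are neuronal, while Kcnj10 and Kcnj16 form the inward rectifier with which astrocytes take up potassium released by active neurons.

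The libraries held 23070147 to 33907984 estimated reads, and the members took 0.166 to 0.170% of them in shPpp1r17 and 0.180 to 0.186% in shfLuc. The targeted gene stood at 87.7, 2.07, 3.10 and 87.2 CPM (read counts scaled to library size) in shPpp1r17 libraries 1 to 4, against 147, 161, 161 and 171 CPM in shfLuc libraries 1 to 4. All shPpp1r17 libraries were below all shfLuc libraries, but libraries 2 and 3 were far lower than 1 and 4, and the log2 fold change of -1.83 (SE 0.80) had an edgeR adjusted p of 0.197. The same 2 libraries stood apart on the first principal component of all tested genes, which held 32.3% of the variance. Markers of other cells moved with the hairpin: 8 of 14 microglia and macrophage genes were called higher, with a summed level of 548 to 1006 TPM (abundance scaled to transcript length and library) in shPpp1r17 and 348 to 525 TPM in shfLuc. Markers of dorsomedial and tuberal neurons were present, none at 0, with 2 of 8 called higher (Nts and Cartpt) and 0 lower by edgeR. The median log2 fold change of the 8 was -0.34. Their sum, which includes the targeted gene, was 2933 to 3922 TPM in shPpp1r17 and 3849 to 4514 TPM in shfLuc, with overlap. Within it the targeted gene averaged 35.2 TPM in shPpp1r17 and 132 TPM in shfLuc. All 5 tested blood genes and 4 of 11 oligodendrocyte genes were also called higher, and 1 of 12 neuronal genes was called higher and 3 lower. The oligodendrocyte sum was 788, 1227, 1272 and 735 TPM in shPpp1r17 libraries 1 to 4 and 734 to 802 TPM in shfLuc. Only libraries 2 and 3 were thus above the shfLuc range. The part of these shifts in the member values was not tested, and in bulk samples fewer cells of a type and less RNA per cell cannot be told apart.

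Across the potassium channel genes, 4 were called lower in shPpp1r17 and none was called higher. The 4 were Kcnd2, the pore of the somatodendritic A-type current; Kcnt2, a sodium-activated channel; and Kcnj10 and Kcnj16, the astrocytic inward rectifier pair. Calls are adjusted p under 0.05 in edgeR's quasi-likelihood test with Benjamini-Hochberg adjustment over 17339 tested genes, of which 74 were members. The 4 members lower made up 5.41% of those tested, against 2.66% of all tested genes called lower (462 genes), and the 0 members higher stand against 3.39% of all tested genes called higher (588 genes); in either direction it was 6.06% of all tested genes. At an unadjusted p under 0.05, 11 members (14.9%) were lower and 6 (8.11%) higher, against 11.0% and 11.6% of all tested genes. DESeq2 called the same 4 members and Kcnma1 lower, 6.94% of the 72 to which it gave an adjusted p, and 0 higher. That share is near its background: DESeq2 called 5.63% of all genes lower and 6.03% higher. Of the 74, 43 had a log2 fold change below 0 (58.1%, against 49.4% of all tested genes), and their median was -0.07 against 0.00 for all tested genes. With a trend on transcript length and GC content removed, a setting added after the data were seen, the median was -0.0199 for the members and -0.0210 for all genes. The calls depended on single libraries: edgeR called 0 members lower without shPpp1r17 library 3, shfLuc library 2, 3 or 4, 1 (Kcnt2) without shPpp1r17 library 2, 3 without shfLuc library 1 and 6 without shPpp1r17 library 4. Counts over all genes moved with them. In the same fits edgeR called 0 of all genes lower without shfLuc library 2 or 3, and 60 without shPpp1r17 library 3. It called 96 lower without shfLuc library 4 and 100 without shPpp1r17 library 2. Without shfLuc library 1 it called 423 lower, and without shPpp1r17 library 4 it called 706. In the 4 fits with 0 members called, 7 to 10 members were lower and 3 to 4 higher at an unadjusted p under 0.05. Of all tested genes in these fits (17653 to 17778), 2937 to 3347 had such a p in either direction. DESeq2 called 3 to 5 members lower in them, and 463 to 599 of all genes. Whether the members differ from all genes here was not tested. Library by library, the median log2 ratio of the 74 to the shfLuc mean was -0.08, -0.07, 0.02 and -0.08 in shPpp1r17 libraries 1 to 4, and -0.02 to 0.05 in shfLuc. The targeted gene was lowest in libraries 2 and 3. The median of library 2 was below the shfLuc range and that of library 3 was not. By summed level library 3 was the lowest of all, at 537 TPM against 607 to 644 TPM in shfLuc.

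**Figure D1:**
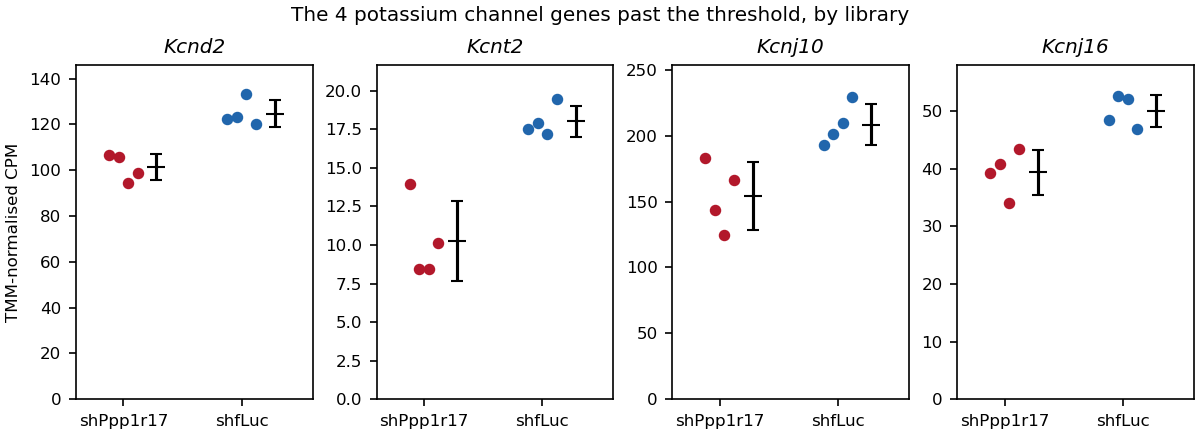
TMM-normalised CPM of the 4 members called lower, Kcnd2, Kcnj10, Kcnj16 and Kcnt2, with 1 point per library and the mean and SD as bars for shPpp1r17 and shfLuc. In each gene every shPpp1r17 library lies below every shfLuc library.

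Kcnd2 (ENSMUSG00000060882; chr6:21215503-21729805, plus strand, GRCm38) was the fourth most abundant member per transcript length and the only voltage-gated pore among the 4. It had 106, 106, 94.5 and 98.6 CPM in shPpp1r17 libraries 1 to 4, against 123, 123, 133 and 120 CPM in shfLuc libraries 1 to 4. The groups did not overlap, and the spread within each was small beside the gap between them. The log2 fold change was -0.30 (SE 0.07; edgeR adjusted p = 0.0291). Its paralogue Kcnd3 had a log2 fold change of 0.01 and Kcnd1, a scarce pore of the same family, of -0.50 (edgeR adjusted p = 0.169, groups overlapping). The summed level of the Kv4 family, to which all 3 belong, was 34.8, 33.9, 30.3 and 32.2 TPM in shPpp1r17 and 39.0, 42.0, 44.8 and 40.2 TPM in shfLuc, so that the groups did not overlap.

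Kcnj10 (ENSMUSG00000044708; chr1:172341210-172374085, plus strand, GRCm38) was the second most abundant member. It had 183, 143, 125 and 167 CPM in shPpp1r17, against 193, 201, 210 and 229 CPM in shfLuc. The groups did not overlap, although shPpp1r17 library 1 came close to shfLuc library 1, and libraries 2 and 3 were the lowest. The log2 fold change was -0.43 (SE 0.11; edgeR adjusted p = 0.0351). Kcnj16 (ENSMUSG00000051497; chr11:110968033-111027968, plus strand, GRCm38), whose product joins that of Kcnj10 in heteromeric channels, had 39.3, 40.9, 34.1 and 43.4 CPM in shPpp1r17 and 48.4, 52.6, 52.0 and 47.0 CPM in shfLuc. It too separated completely, with a log2 fold change of -0.34 (SE 0.09; edgeR adjusted p = 0.0377). Without shPpp1r17 libraries 2 and 3, a setting added after the data were seen, edgeR called no member, and 11 of all genes lower. At an unadjusted p under 0.05, 8 of 75 members were lower and 2 higher. Of 18037 tested genes, 2315 had such a p in either direction. The log2 fold changes in this fit were -0.26 (edgeR adjusted p = 0.254) for Kcnj10, -0.28 (0.255) for Kcnj16, -0.29 (0.168) for Kcnd2 and -0.59 (0.140) for Kcnt2. With the length and GC trend removed, the adjusted p of Kcnj10 was 0.0544.

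Because the pair contributes to 1 channel and both fell together, their promoters are set side by side here, from RefSeq on GRCm38.p6, each 250 bases before to 50 bases after the annotated start. The Kcnj10 window is chr1:172340960-172341259 on the plus strand and the first of 4 Kcnj16 windows is chr11:110967783-110968082 on the plus strand; capitals mark GC, TATA and CCAAT boxes on either strand.
Kcnj10 promoter: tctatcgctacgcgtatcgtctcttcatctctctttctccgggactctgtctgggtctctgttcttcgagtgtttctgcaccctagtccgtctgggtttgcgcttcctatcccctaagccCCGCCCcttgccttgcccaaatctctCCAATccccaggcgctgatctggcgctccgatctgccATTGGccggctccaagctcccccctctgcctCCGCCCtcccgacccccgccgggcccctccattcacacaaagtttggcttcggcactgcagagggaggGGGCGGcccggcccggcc
Kcnj16 promoter: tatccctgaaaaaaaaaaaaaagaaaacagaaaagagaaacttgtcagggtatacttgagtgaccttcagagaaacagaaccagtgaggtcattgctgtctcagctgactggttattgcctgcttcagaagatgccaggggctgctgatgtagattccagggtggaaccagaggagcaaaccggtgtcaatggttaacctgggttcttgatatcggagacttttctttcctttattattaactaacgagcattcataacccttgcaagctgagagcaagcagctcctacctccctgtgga
The Kcnj10 window was 63.7% G or C and held 3 GC boxes, 2 CCAAT boxes and 0 TATA boxes, while the Kcnj16 window was 44.3% G or C and held 0 of each. Among 32851 mouse promoters of the same length, 35.7% held the GC box, searched as the letters GGGCGG, and the median GC content was 52.7%. The CCAAT box, searched by the letters of its name, was in 37.4% of them. The TATA box, searched as TATAAA, was in 13.6%. The other Kcnj16 windows were 44.0 to 53.0% G or C; 1 held a TATA box and another a GC box and a CCAAT box. Which Kcnj16 start was used in these samples was not analysed here.

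Astrocyte markers were set beside this pair. Of 12 astrocyte genes, 2 were called higher (Gfap and S100b) and 3 lower (Slc1a3, Agt and Slc4a4), and none was at 0. Their summed level was 1160, 1175, 1018 and 1165 TPM in shPpp1r17 and 1247, 1373, 1249 and 1381 TPM in shfLuc, lower in every shPpp1r17 library than in every shfLuc library. The part of astrocyte number in the fall of Kcnj10 and Kcnj16 was not tested. Of a list of 7 members known from glia, immune cells or vessels, Kcnj10 and Kcnj16 were called lower and 0 higher by edgeR and by DESeq2 (1 higher at an unadjusted p under 0.05), and the other 5 (Kcnk13, Kcnk6, Kcnn4, Kcnj8 and Kcnmb1) had log2 fold changes above 0. The list does not hold Kcna5, which vessels and microglia also express (log2 fold change 0.43, edgeR adjusted p = 0.114). Among the 5, Kcnn4, a calcium-activated channel of microglia and blood cells, had 9, 31, 26 and 15 reads in shPpp1r17 and 10, 4, 6 and 0 reads in shfLuc. Its groups overlapped, and its log2 fold change of 1.77 (SE 0.73) had an edgeR adjusted p of 0.168.

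**Figure D2:**
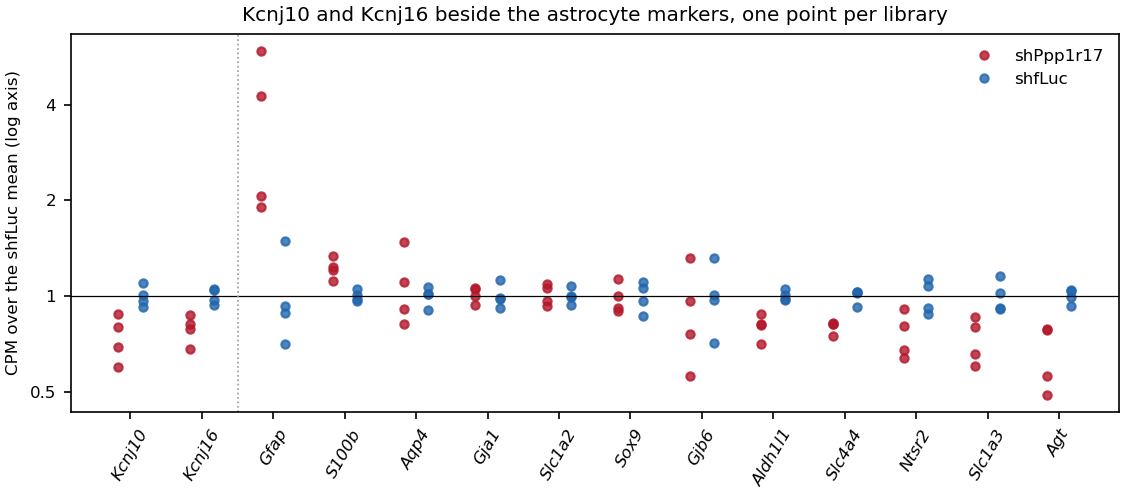
CPM divided by the shfLuc mean (log axis) of Kcnj10, Kcnj16 and the 12 astrocyte markers, 1 point per library, with shPpp1r17 left of shfLuc for each gene. Kcnj10 and Kcnj16 lie below every shfLuc library in all 4 shPpp1r17 libraries, while Gfap and S100b were called higher and Slc1a3, Agt and Slc4a4 lower.

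Kcnt2 (ENSMUSG00000052726; chr1:140246158-140612067, plus strand, GRCm38) had the largest fall among the 4. It had 13.9, 8.47, 8.44 and 10.1 CPM in shPpp1r17, against 17.5, 17.9, 17.2 and 19.5 CPM in shfLuc. The groups did not overlap, and shPpp1r17 libraries 2 and 3 were again the lowest. The mean was 56.8% of that in shfLuc, a log2 fold change of -0.82 (SE 0.16; edgeR adjusted p = 0.0141). Kcnt1, the other sodium-activated pore, had 23.2, 17.1, 17.1 and 20.1 CPM in shPpp1r17 and 22.7, 22.4, 26.5 and 23.2 CPM in shfLuc, with overlap and an adjusted p of 0.159. Kcnma1, the large-conductance calcium-activated (BK) pore, had 97.6, 94.0, 84.7 and 81.3 CPM in shPpp1r17 and 107, 106, 105 and 103 CPM in shfLuc. It separated completely, but with a log2 fold change of -0.24 (SE 0.08) its edgeR adjusted p was 0.0806. It was called with an effective length offset (-0.32, adjusted p = 0.0455), with log2(TPM + 1) (-0.38, 0.0417), with log2(TPM + 0.1) (-0.41, 0.0417) and without shPpp1r17 library 1 (-0.28, 0.0450), and its log2 fold change was -0.16 (0.236) once the trend on length and GC content was taken out. Of the 3 small-conductance genes of neurons, Kcnn1, Kcnn2 and Kcnn3, all had overlapping groups and adjusted p of 0.379 or more. The calcium- and sodium-activated subfamily was counted as 8 genes. It included Kcnu1, which was grouped here by its symbol and is not among the genes described above as opened by calcium or sodium. The summed level of the 8 was 46.1, 41.5, 36.8 and 44.1 TPM in shPpp1r17 and 50.2, 51.0, 55.9 and 51.6 TPM in shfLuc, without overlap.

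Among the 11 coding subfamilies, the inward rectifiers had the lowest summed level relative to shfLuc, a place that rests on Kcnj10 and Kcnj16. Their 15 genes summed to 80.8 ± 10.8 TPM in shPpp1r17 and 109 ± 4.35 TPM in shfLuc (SD, n = 4 each), or 73.8% of the shfLuc level, with no overlap between groups. Of 11 tested, 9 had log2 fold changes below 0, of which 2 were called. Leaving out Kcnj10 and Kcnj16, the others summed to 30.6 ± 3.26 TPM in shPpp1r17 and 38.5 ± 2.66 TPM in shfLuc, still without overlap but at 79.4% of shfLuc, next to 79.1% for the Kcnd genes. This remainder is mostly the G-protein-gated channels through which inhibitory receptors hyperpolarize neurons: Kcnj3, Kcnj5, Kcnj6 and Kcnj9 together had 25.97, 18.6, 21.02 and 23.3 TPM in shPpp1r17 and 30.0, 29.2, 29.0 and 26.8 TPM in shfLuc. All 4 had log2 fold changes below 0, from -0.84 to -0.22, 2 with an unadjusted p under 0.05, and none was called by edgeR or DESeq2. Kcnj3 had 36.9, 27.6, 27.3 and 34.3 CPM in shPpp1r17 against 41.5, 38.3, 33.0 and 41.4 CPM in shfLuc, overlapping in library 3 of shfLuc, with an adjusted p of 0.156. Kcnj5 had 3.67, 3.05, 2.78 and 6.32 CPM in shPpp1r17 against 7.52, 8.99, 8.55 and 3.38 CPM in shfLuc, with 1 library of each group on the other side and an adjusted p of 0.140. Kcnj11, the pore of the ATP-sensitive channel that couples energy state to firing, averaged 4.09 ± 1.17 CPM in shPpp1r17 and 5.97 ± 2.09 CPM in shfLuc (SD, n = 4 each), with overlap and an adjusted p of 0.275.

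**Figure D3:**
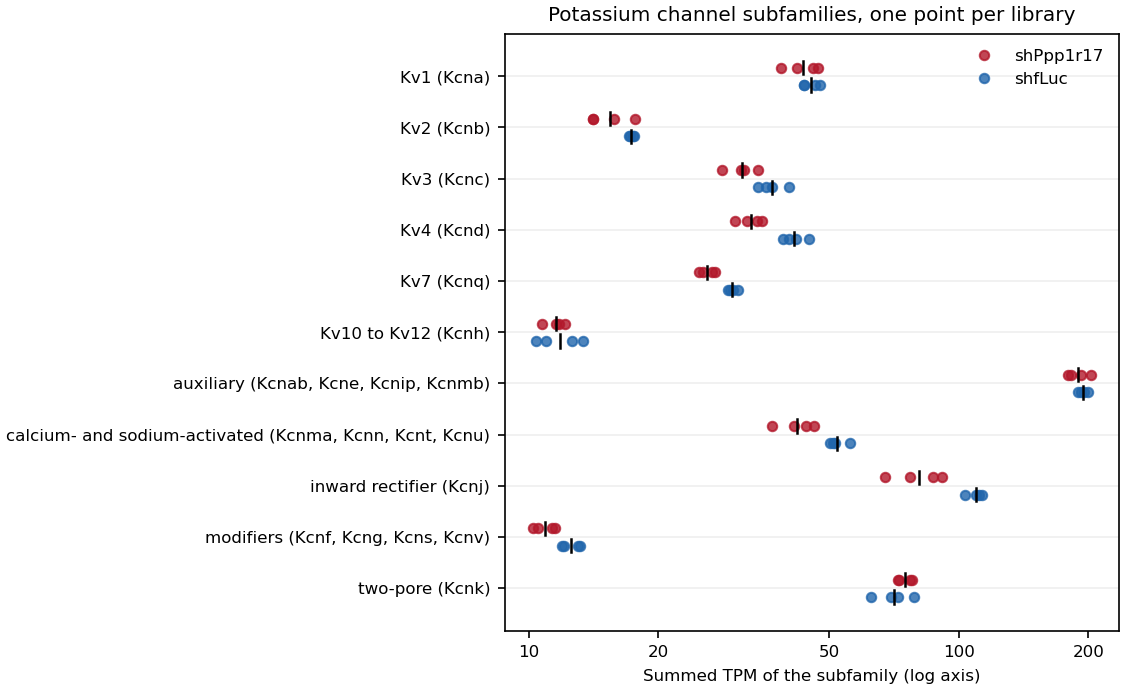
Summed TPM of each of 11 subfamilies (log axis), 1 point per library, with shPpp1r17 drawn above shfLuc and black ticks at the group means. In 6 subfamilies (Kcnc, Kcnd, Kcnq, Kcnj, the modifiers and the calcium- and sodium-activated genes) every shPpp1r17 point lies to the left of every shfLuc point.

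Summed per length, 6 of the 11 coding subfamilies were lower in every shPpp1r17 library than in every shfLuc library, and 5 overlapped. How often sums of other genes separate in this way was not tested. Among the Kcnc genes and the modifiers, whose sums separated, 0 tested members separated in CPM. Kcna genes, which open near threshold in axons, summed to 43.4 ± 3.85 TPM in shPpp1r17 and 45.3 ± 1.99 TPM in shfLuc (SD, n = 4 each). Kcnc genes, known for fast repolarization in rapidly firing cells, summed to 31.3 ± 2.44 TPM in shPpp1r17 and 36.8 ± 2.65 TPM in shfLuc, without overlap. Kcnq genes, which carry the M-current that muscarinic receptors suppress, summed to 24.96 to 27.1 TPM in shPpp1r17 and 29.02 to 30.7 TPM in shfLuc, without overlap. The modifiers were also lower without overlap, at 10.9 ± 0.631 TPM in shPpp1r17 and 12.6 ± 0.638 TPM in shfLuc. Kcnh genes, which include the ether-a-go-go channels, summed to 11.6 ± 0.592 TPM in shPpp1r17 and 11.9 ± 1.41 TPM in shfLuc. TPM runs low in shPpp1r17 for genes at large, since the median difference in log2(TPM + 1) over all tested genes was -0.06, and sums per length carry that offset. All 94 members summed to 568, 556, 537 and 579 TPM in shPpp1r17 and to 607, 623, 644 and 617 TPM in shfLuc.

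No two-pore gene or auxiliary subunit was called. Two-pore genes, which give leak currents, summed to 75.0 ± 3.07 TPM in shPpp1r17 and 70.8 ± 6.75 TPM in shfLuc, with overlap; 6 of the 8 tested had log2 fold changes above 0 (2 with an unadjusted p under 0.05), and DESeq2 called none. Kcnk1, a leak channel of neurons and astrocytes, had 34.8, 34.7, 35.6 and 37.7 CPM in shPpp1r17, against 26.4, 30.7, 31.1 and 32.4 CPM in shfLuc. All shPpp1r17 libraries were above all shfLuc libraries, but with a log2 fold change of 0.24 (SE 0.09) its edgeR adjusted p was 0.112. Kcnk3, an acid-sensitive leak channel, had 48.9, 46.7, 48.8 and 36.2 CPM in shPpp1r17 and 31.6, 31.3, 47.0 and 36.4 CPM in shfLuc, with overlap and an adjusted p of 0.207. Its relative Kcnk9 had 60.9 to 63.7 CPM in shPpp1r17 and 63.1 to 67.1 CPM in shfLuc, with a log2 fold change of -0.07.

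Auxiliary genes summed to 189 ± 10.7 TPM in shPpp1r17 and 194 ± 4.34 TPM in shfLuc (SD, n = 4 each), with overlap. They held 33.8% of the summed member TPM in shPpp1r17 and 31.2% in shfLuc, where that total was higher. Kcnip4, a calcium-binding partner of Kcnd pores, was the most abundant member, at 75.8 TPM over all libraries. It had 127, 132, 127 and 145 CPM in shPpp1r17, against 122, 111, 114 and 117 CPM in shfLuc. All shPpp1r17 libraries were above all shfLuc libraries, although the log2 fold change of 0.19 (SE 0.07) had an edgeR adjusted p of 0.128 and was 0.10 with log2(TPM + 1). Kcnip1, of the same family, averaged 38.6 ± 5.50 CPM in shPpp1r17 and 46.7 ± 4.76 CPM in shfLuc (SD, n = 4 each), with overlap and an adjusted p of 0.158. Kcnip3, which also binds DNA and presenilins, averaged 43.0 ± 1.15 CPM in shPpp1r17 and 38.6 ± 3.34 CPM in shfLuc (SD, n = 4 each), with overlap. The summed Kcnip level was 144 ± 8.60 TPM in shPpp1r17 and 146 ± 4.72 TPM in shfLuc, while that of the Kcnd pores they join was lower in every shPpp1r17 library; the difference between these was not tested. The other auxiliary families overlapped in summed level. Kcnab genes, cytoplasmic beta subunits of Kcna pores, had 26.1 to 32.1 TPM in shPpp1r17 and 29.6 to 36.6 TPM in shfLuc. Kcne genes, single-pass partners of Kcnq and other pores, had 5.25 to 9.17 TPM in shPpp1r17 and 4.82 to 10.6 TPM in shfLuc. Kcnmb genes, beta subunits of the BK channel, had 5.89 to 9.83 TPM in shPpp1r17 and 6.25 to 8.35 TPM in shfLuc.

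**Figure D4:**
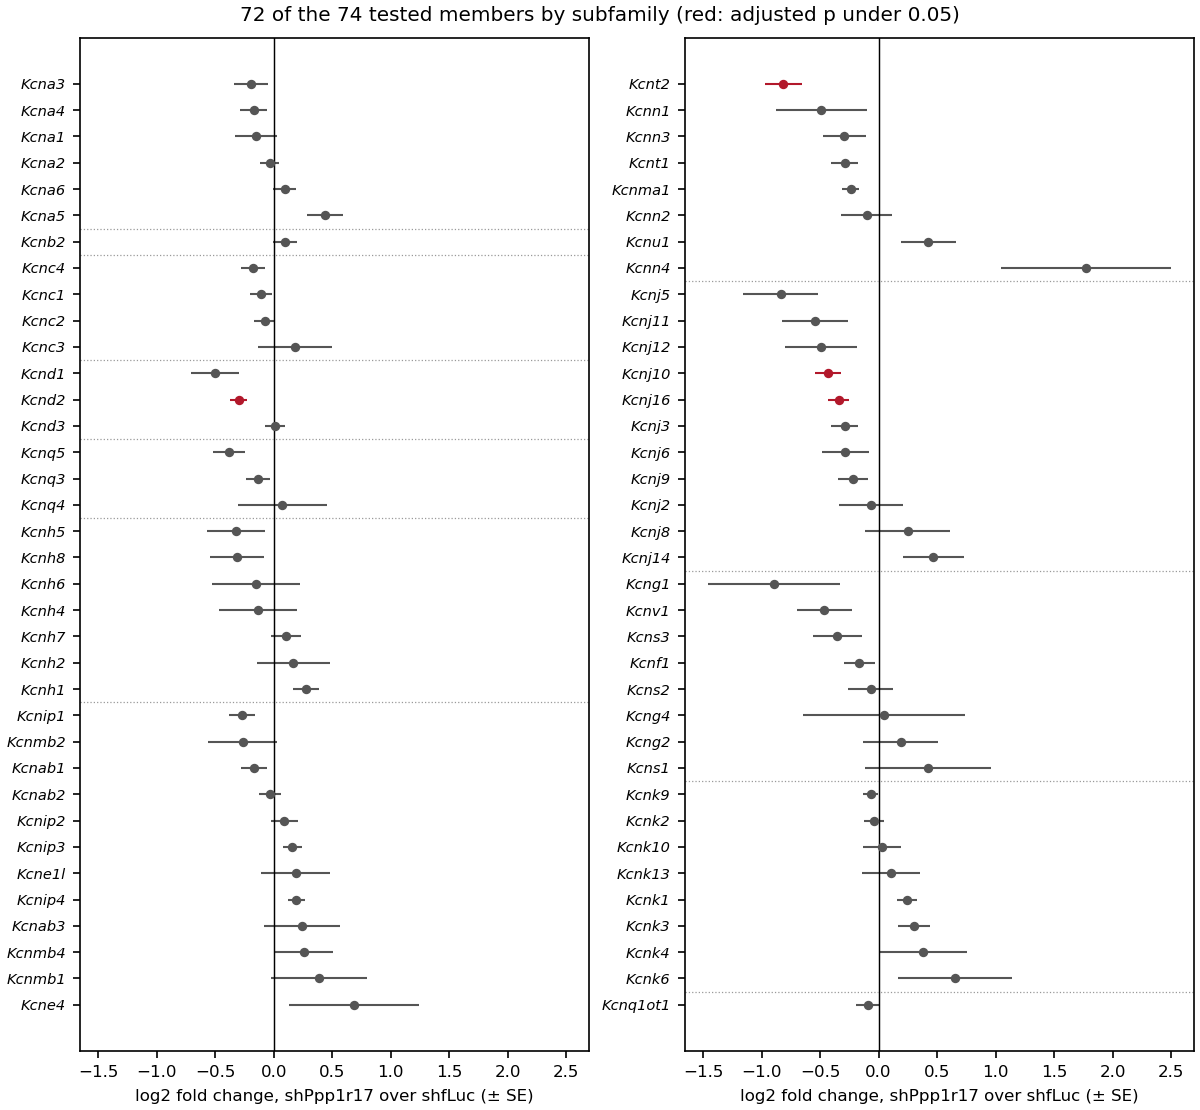
The log2 fold change (shPpp1r17 minus shfLuc) of 72 of the 74 tested members with its standard error, grouped by subfamily (dotted lines), with called members in red. The 4 red members, Kcnd2, Kcnj10, Kcnj16 and Kcnt2, all lie below 0.

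Other members, named for their abundance or for the smallest p in their subfamily, had no call. Kcna6, a Kv1 pore, had 42.1, 54.0, 58.2 and 45.9 CPM in shPpp1r17 and 46.0, 47.9, 45.1 and 48.7 CPM in shfLuc; its log2 fold change was 0.09 on this scale and -0.0215 on the log2(TPM + 1) scale. Kcna5, a Kv1 pore of vessels, heart and microglia, averaged 11.9 ± 2.03 CPM in shPpp1r17 and 8.81 ± 0.996 CPM in shfLuc (SD, n = 4 each), with overlap and an edgeR adjusted p of 0.114. That log2 fold change of 0.43 was 0.28 with log2(TPM + 1). Kcnh1, an ether-a-go-go pore, averaged 23.2 ± 2.69 CPM in shPpp1r17 and 19.1 ± 1.35 CPM in shfLuc (SD, n = 4 each), with overlap and an edgeR adjusted p of 0.151; its log2 fold change was 0.28, and 0.15 with log2(TPM + 1). Kcnb2, a delayed rectifier, had 31.1, 37.02, 30.9 and 31.1 CPM in shPpp1r17 and 27.8, 27.4, 33.3 and 33.1 CPM in shfLuc, with overlap; its log2 fold change was 0.10 on this scale and -0.0533 on the log2(TPM + 1) scale. Kcnq5, an M-current pore, had 11.1, 9.10, 9.93 and 13.5 CPM in shPpp1r17 against 14.1, 14.4, 14.1 and 14.4 CPM in shfLuc, complete separation with an edgeR adjusted p of 0.113. Kcnc4 averaged 27.2 ± 3.41 CPM in shPpp1r17 and 30.9 ± 2.37 CPM in shfLuc, and the modifier Kcnv1 averaged 3.20 ± 0.709 CPM in shPpp1r17 and 4.40 ± 0.916 CPM in shfLuc (SD, n = 4 each), both with overlap. The log2 fold change of Kcnv1 was -0.46, but -0.0800 with an effective length offset and -0.0893 with log2(TPM + 1). Kcnq1ot1 averaged 89.4 ± 13.3 CPM in shPpp1r17 and 95.3 ± 4.12 CPM in shfLuc (SD, n = 4 each). Its locus overlaps Kcnq1, to which at most 15 reads were assigned in any library. Whether counting used strand was not stated, so how reads from the shared stretch were divided is not known.

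Several further members, neuronal pores chosen for mention after their values were seen, had overlapping groups and an edgeR adjusted p of 0.417 or more. Kcna2, an axonal pore, averaged 41.7 ± 3.22 CPM in shPpp1r17 and 42.8 ± 2.42 CPM in shfLuc (SD, n = 4 each). Kcna1, its partner in axons, averaged 4.94 ± 0.415 CPM in shPpp1r17 and 5.48 ± 0.842 CPM in shfLuc. Kcna4, the A-type pore of the Kv1 family, averaged 12.7 ± 1.02 CPM in shPpp1r17 and 14.3 ± 0.974 CPM in shfLuc. In each of these Kv1 pores the libraries of both groups interleaved. Kcnc1 and Kcnc2, the fast-repolarizing pores, had 29.3 to 37.9 and 30.7 to 35.4 CPM in shPpp1r17, and 34.7 to 37.8 and 30.4 to 38.1 CPM in shfLuc. Kcnk2, a leak channel gated by stretch and temperature, averaged 37.1 ± 2.95 CPM in shPpp1r17 and 38.1 ± 1.99 CPM in shfLuc. A missed threshold does not show that levels were equal: the standard error of the log2 fold change was 0.08 for Kcna2 and Kcnk2.

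Counting non-overlap alone, 7 members were lower in every shPpp1r17 library and 2 higher (Kcnip4 and Kcnk1), against 6.74% and 7.12% of all tested genes. The 7 were Kcnd2, Kcnj10, Kcnj16, Kcnt2, Kcnma1, Kcnq5 and Kcnj6. The remaining 20 members did not pass the filter on low counts, with at most 30 reads in any library. Kcna7, Kcnh3 and Kcnj1 had 0 reads in all libraries, which allows up to 3 reads per library. No molecular identifiers are mentioned in the labels, so PCR copies may count as reads, and this limit covers counting error only. At the other end, 22 members averaged at least 10 TPM, and the 10 most abundant held 51.5 to 52.3% of the summed member TPM in shPpp1r17 libraries and 50.5 to 51.9% in shfLuc libraries.

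Partner proteins outside the symbol rule were counted in the same fit. Of 22 listed, 18 were tested, and edgeR called 1 lower and 0 higher; 8 were lower at an unadjusted p under 0.05 and 1 higher, and DESeq2 called 3 lower and 0 higher. For comparison, the shares of all genes were 2.66% lower by edgeR, 11.0% lower at an unadjusted p under 0.05 and 5.63% lower by DESeq2, and the 1 partner is 5.56% of 18. The 1 was Cntnap2 (chr6:45059357-47304213, plus strand, GRCm38), an adhesion protein that clusters Kcna pores beside the node of Ranvier. It had 179, 140, 130 and 170 CPM in shPpp1r17 and 179, 209, 239 and 248 CPM in shfLuc, just short of overlap in library 1 of each, with a log2 fold change of -0.50 (SE 0.12; edgeR adjusted p = 0.0291). That call depended on the setting. Over fits without 1 library its adjusted p ran from 0.0146 to 0.101. It was 0.0663 with an effective length offset (log2 fold change -0.30), 0.0505 with log2(TPM + 1) (-0.38), 0.0510 with log2(TPM + 0.1) (-0.39), and 0.0593 once the trend on length and GC content was taken out (-0.42). Without shPpp1r17 libraries 2 and 3 the log2 fold change was -0.33 (adjusted p = 0.273). Dpp10, a peptidase-like partner of Kcnd pores, had 65.9, 43.9, 42.8 and 69.5 CPM in shPpp1r17 and 78.6, 78.4, 75.5 and 87.5 CPM in shfLuc, without overlap and with an edgeR adjusted p of 0.0509. Dpp6, its relative, had 227 to 253 CPM in shPpp1r17 and 238 to 268 CPM in shfLuc, with an adjusted p of 0.526.

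An earlier look at these same libraries had found the word CTCTGAT or TCTGATA frequent in the 3' UTR of lower genes, so its presence is described here with no test. It was read on the sense strand, in the longest annotated 3' UTR (GENCODE M21, GRCm38) of each coding gene with at least 50 bases. It was present in 23 of 73 tested members (31.5%) and in 2672 of 14261 tested genes (18.7%). Members' 3' UTRs were also longer, with a median of 1860 bases against 1225 for all tested genes, and longer sequences hold more words. Members with the word had a median log2 fold change of -0.13 and those without 0.01, against -0.12 and 0.02 for all tested genes. The 3' UTRs with the word were longer, with medians of 2873 bases against 1626 in members. In all tested genes they were 2538.5 against 1011 bases. The part of length in the difference between genes with and without the word was not tested. Among the members called lower, Kcnd2 and Kcnj16 held the word and Kcnj10 and Kcnt2 did not. The sites of those 2, and the 8-base form in Kcnj5 and Kcnb2, are printed 5' to 3' with the word in capitals; they lie at chr6:21727743-21727765 (plus), chr11:111027814-111027836 (plus), chr9:32317075-32317098 (minus) and chr1:15716758-15716781 (plus).
Kcnd2: aacattggCTCTGATgaagattg
Kcnj16: tcacaggtCTCTGATtaaacaga
Kcnj5: ttgttcacCTCTGATActacttag
Kcnb2: aaaagaaaCTCTGATAtgtaatag
The 8-base form was in 4 members, the other two being Kcnf1 and Kcnk6. Their log2 fold changes had no common direction: -0.84 for Kcnj5, -0.17 for Kcnf1, 0.10 for Kcnb2 and 0.65 for Kcnk6, and none was called.

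**Figure D5:**
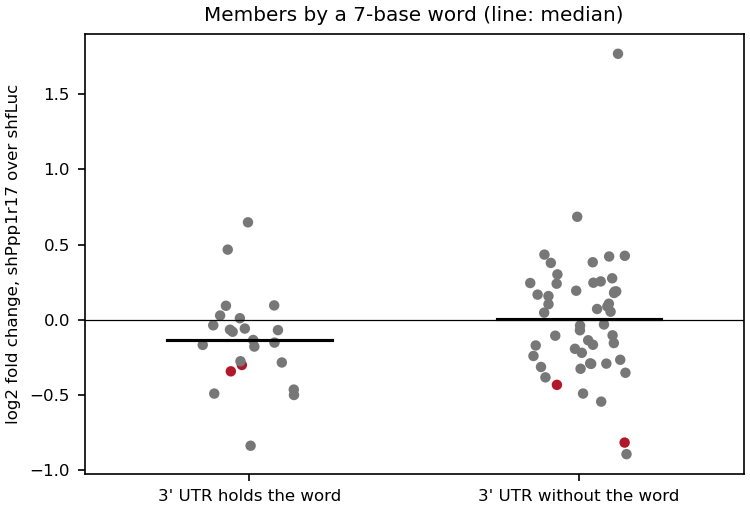
The log2 fold change (shPpp1r17 minus shfLuc) of tested members with and without the 3' UTR word, 1 point per gene, with medians and with called members in red. The median is -0.13 with the word and 0.01 without, and called members are found on both sides. The 3' UTRs with the word are longer (median 2873 bases, against 1626 without).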

How the data were processed

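Estimated gene counts and TPM of 8 libraries, 4 per hairpin, were used. Per the labels' protocols, RNA was isolated with PicoPure and libraries were prepared with SMARTer chemistry. The deposited tables hold, per the file headers, length, effective length, TPM and estimated counts for 55487 genes. Tools named in the submitters' processing notes are DRAGEN, bcl2fastq, limma and edgeR; the genome build and the aligner's settings were not stated there. The authors' expected counts were rounded to whole numbers, and the deposited TPM values were summed per subfamily. The deposited effective length served as an offset in an alternative. Symbols came from a table in which 55141 identifiers matched.

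Groups and numbers came from sample titles. The test was the edgeR 4.0.16 quasi-likelihood test on TMM-normalised counts, keeping genes by a minimum count of 10 and a minimum total of 15, with R 4.3.3, limma 3.58.1 and DESeq2 1.42.0 for alternatives; the fit was checked on simulated counts. Per-library gene values are TMM-normalised CPM. Named genes were the called members, the 10 most abundant, the smallest p of each subfamily and called partners; any other member was named with its values in view, and 2 members are not reported by name here. Members and lists were chosen with earlier results of these data known. The main fit did not pair libraries by replicate number (correlations of -0.01, 0.04, 0.01 and 0.12). Whether same-numbered libraries were paired was not known. Positions came from GENCODE M21 and RefSeq promoters (69 members matched), both on GRCm38, which may not be the authors' build.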

Additional observations from a re-analysis of the deposited data

Results flagged for a closer look

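Of 84 groups of 4 libraries checked for a library far from the other three, 3 were singled out, and chance alone gives about 1 in 20. Kcnk3 had 36.2 CPM in shPpp1r17 library 4, against 46.7 to 48.9 CPM in the other shPpp1r17 libraries. Kcnb2 had 37.02 CPM in shPpp1r17 library 2, against 30.9 to 31.1 CPM in the others. The summed level of the 77 members other than auxiliary genes and Kcnq1ot1 was 356 TPM in shPpp1r17 library 3, against 373 to 375 TPM in the others.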

How the results depend on the processing

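Of 380 recomputations of the named genes (19 genes under 20 settings), 328 kept their direction and side of the threshold, 39 lost a call, 7 gained one and 6 changed sign. Only genes called in the main fit could lose a call. All 39 losses therefore fell on Kcnd2, Kcnj10, Kcnj16, Kcnt2 and Cntnap2, each under 20 settings. None of the recomputations that left out 1 library changed sign. Signs changed for Kcna6 (-0.0215 with log2(TPM + 1), -0.0228 with log2(TPM + 0.1) and -0.10 without shPpp1r17 libraries 2 and 3), Kcnb2 (-0.0533 and -0.0628 on those TPM scales), and Kcnq1ot1 (0.0865) with the length and GC trend removed. DESeq2 called 984 genes higher and 919 lower. With log2(TPM + 1), 309 genes were higher and the member median was -0.12; with log2(TPM + 0.1), 306 genes were higher and the median was -0.16. Leaving out 1 library gave 0 to 6 members lower, 0 to 1 higher (Kcnh1, without shPpp1r17 library 4), 0 to 842 genes higher, 0 to 706 lower, and a member median of -0.09 to -0.05. Without shfLuc library 2 or 3, edgeR called 0 genes, with 3309 and 3146 at an unadjusted p under 0.05. DESeq2 called 3 members lower in each, beside 525 and 503 of all genes. Over these fits the edgeR adjusted p was 0.00265 to 0.0572 for Kcnt2, 0.0262 to 0.103 for Kcnd2, 0.0119 to 0.105 for Kcnj10 and 0.0225 to 0.122 for Kcnj16. Without shPpp1r17 libraries 2 and 3, 0 members were lower, 26 genes were higher and 11 lower, and the member median was -0.11. The length and GC trend gave a member median of -0.0199. With the replicate number as a block, 2 members and 302 genes were lower and 424 higher; Kcnd2 (adjusted p = 0.0694), Kcnj16 (0.0753) and the partner Cntnap2 (0.0513) were not called. Same-numbered libraries deviated together with correlations of -0.01 to 0.12, and 4 of 8 correlated best with their own number. The causes were not tested. Depth limits the 20 untested members and scarce ones such as Kcnn4.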
